A study of Mus musculus with 4 samples.

Results

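The C/EBP transcription factor genes were followed through RNA-seq of mouse embryonic fibroblasts, as the 5 rows whose Ensembl identifiers map to Cebpa, Cebpb, Cebpd, Cebpg and Cebpz among 27597 genes listed in at least 1 table. The members were selected on measured RPKM with earlier results in view, among them the low level of Cebpb in OSKM against SKM, so their levels are given as a description, and no difference was tested. The cells came from the skin of embryos (age D13.5) of the strain OGXICR after removal of the epidermis, and grew in medium with 10% serum. All 4 groups were infected by a doxycycline-inducible lentiviral system. The control group received an empty vector, the SKM group SOX2, KLF4 and c-MYC, the OSKM group these factors with OCT4, and the G3SKM group these factors with GATA3. The labels give neither a time after infection nor the share of cells that carried each factor. Each group has 1 value per gene made from 2 combined replicates, and without a spread between replicates no value below has a replicate error.

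C/EBP proteins carry a basic region that contacts DNA and a leucine zipper (bZIP) through which they pair with each other and with other bZIP proteins. C/EBP-beta and C/EBP-delta are induced early when fibroblasts enter adipogenesis or meet inflammatory signals, and C/EBP-alpha follows as a factor of differentiation in fat, liver and myeloid cells. C/EBP-gamma lacks a strong activation domain and acts as a partner of other bZIP proteins. Cebpz is named for binding to a CCAAT box but encodes no bZIP protein, and its yeast relative Noc1 acts in the assembly of ribosomes.

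Sequence just upstream of the annotated start was available for 3 of the 5 members in RefSeq (build GRCm38.p6). It is shown because the member with the widest range, Cebpb, differs in it from Cebpa and from Cebpg, the neighbour of Cebpa. Each line gives the 250 bases before the start, 5′ to 3′ on the strand of the gene, and capitals mark matches to TGACG (the core of the site of CREB and ATF proteins), CCAAT or TATAAA on either strand.
Cebpb: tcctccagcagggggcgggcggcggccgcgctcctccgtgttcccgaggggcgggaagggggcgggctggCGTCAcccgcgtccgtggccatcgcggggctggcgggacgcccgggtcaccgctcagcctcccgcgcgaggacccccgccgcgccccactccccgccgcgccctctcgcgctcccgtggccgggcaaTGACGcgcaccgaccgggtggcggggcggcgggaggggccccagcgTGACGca
Cebpa: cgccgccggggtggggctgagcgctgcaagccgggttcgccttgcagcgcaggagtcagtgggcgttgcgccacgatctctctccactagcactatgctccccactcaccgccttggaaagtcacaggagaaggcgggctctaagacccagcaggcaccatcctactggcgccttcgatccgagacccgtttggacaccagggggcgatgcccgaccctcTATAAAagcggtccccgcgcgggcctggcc
Cebpg: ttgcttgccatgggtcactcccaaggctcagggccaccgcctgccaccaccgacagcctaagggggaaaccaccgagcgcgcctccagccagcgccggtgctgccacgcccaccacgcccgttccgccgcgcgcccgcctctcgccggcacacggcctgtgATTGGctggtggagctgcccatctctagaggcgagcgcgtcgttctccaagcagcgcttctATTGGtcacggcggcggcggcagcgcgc
These stretches lie at chr2:167688665-167688914 (plus strand) for Cebpb, chr7:35119043-35119292 (plus strand) for Cebpa and chr7:35056567-35056816 (minus strand) for Cebpg. The Cebpb stretch was 81.6% GC, against 66.4% for Cebpa, 70.8% for Cebpg and a median of 52.4% over 32851 promoters. It held TGACG 3 times, beginning at positions -180 (as its reverse complement), -53 and -7 from the start, and 17.8% of promoters held at least 1 match. It also held GGGCGG, the core of the GC box, 5 times, which is not capitalised and which 32.7% of promoters held. The first 2 of these GGGCGG matches overlap each other. The Cebpa stretch held TATAAA at -30, as did 12.4% of promoters at any position. The Cebpg stretch held CCAAT as its reverse complement at -89 and -28, and 33.8% of promoters held that motif. None of the 3 stretches held the C/EBP site TTGCGCAA (0.164% of promoters) or its looser form TTGCNNAA (9.56%), the full site TGACGTCA (1.55%), the STAT site TTCCNNGAA (4.06%) or the E-box CACGTG (6.02%).

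The deposited values are RPKM, reads per kilobase of gene at a common sequencing depth. Depth recovered from the values was 54.0 M to 111 M reads (mega-reads) per group and was lowest in SKM. The 14 fibroblast markers summed to 1038 RPKM with empty vector, 735 with SKM, 456 with OSKM and 468 with G3SKM. In each group this was more than the sum of any other marker list below, and the label of the cells fits these sums. None of them was at 0, but that also held for the macrophage, adipocyte and endothelial markers and so does not mark the cells. The 12 macrophage markers summed to 63.4 RPKM with empty vector, 5.81 with SKM, 2.37 with OSKM and 4.33 with G3SKM. The 10 keratinocyte markers summed to 1.42, 56.3, 33.6 and 40.3 RPKM in that order, with Krt15 and Dsg3 at 0 in empty vector. Adipocyte markers summed to 1.47 to 3.58 RPKM and endothelial markers to 0.0243 to 0.165 RPKM. Myeloid cells, keratinocytes and fibroblasts can all express C/EBP genes, and the part of these cells in the values below was not tested. In bulk RNA, fewer cells of a type and less RNA per cell cannot be told apart. Sox2, a delivered factor, had 0.260 RPKM with empty vector, 187 with SKM, 110 with OSKM and 70.7 with G3SKM. Klf4, also delivered, had 6.26, 19.3, 13.9 and 8.55 RPKM in that order. The OSKM and G3SKM groups thus differed from SKM in these levels too, not only by OCT4 or GATA3. The part of this in the values below was not tested. Pou5f1 (OCT4) was highest in OSKM (3.69 RPKM) and Gata3 in G3SKM (0.571 RPKM). Myc, by contrast, was highest in empty vector (16.0 RPKM) and lowest in G3SKM (6.31 RPKM). Whether the counted stretch of Myc covers the delivered c-MYC was not tested, so its values say nothing of delivery.

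Cebpb was among the most highly expressed bZIP genes of the fibroblasts and had the widest range of the family. It stood at 49.1 RPKM with empty vector, 47.7 with SKM, 13.46 with OSKM and 19.5 with G3SKM, from 8199, 3876, 1512 and 2969 recovered reads. The groups with OCT4 or GATA3 were low, and the empty vector and SKM groups were high and near each other as deposited. The highest value was 3.65 times the lowest. Between SKM and empty vector the ratio was 0.972 (0.935 to 1.01), an interval that includes 1, and with GC trends removed, as described further on, the log2 ratio there went from -0.04 to -0.49 (transcript GC) or -0.29 (coding GC). Brackets hold 95% Clopper-Pearson intervals computed on the reads, which cover counting error only and which PCR copies make too narrow. Cebpb was 3.54-fold lower in OSKM than in SKM (3.34 to 3.76) and 3.65-fold lower than in empty vector (3.45 to 3.85). With GATA3 it was 2.45-fold lower than in SKM (2.34 to 2.57) and 2.52-fold lower than in empty vector (2.42 to 2.63). OSKM lay 1.45-fold below G3SKM (1.36 to 1.54).

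Cebpd, the delta member and a gene that cytokines induce through STAT3, followed another order. It stood at 20.8 RPKM with empty vector, 37.5 with SKM, 17.8 with OSKM and 15.6 with G3SKM, from 2726, 2389, 1568 and 1869 reads. SKM was the high group, and the other groups lay close together. The level in SKM was 1.80-fold that in empty vector (1.71 to 1.90). It was 2.11-fold lower in OSKM than in SKM (1.98 to 2.25) and 2.40-fold lower in G3SKM than in SKM (2.26 to 2.55). Against empty vector Cebpd was 1.17-fold lower in OSKM (1.10 to 1.24) and 1.33-fold lower in G3SKM (1.26 to 1.41).

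Cebpa, the alpha member, was the lowest of the 5 in every group once levels were taken per exon length. It stood at 2.23 RPKM with empty vector, 3.18 with SKM, 1.48 with OSKM and 1.41 with G3SKM, from 654, 452, 292 and 376 reads. Its order over the groups was that of Cebpd except that OSKM and G3SKM did not differ beyond counting error (ratio 1.055, 0.902 to 1.23). It was 2.14-fold lower in OSKM than in SKM (1.84 to 2.49) and 2.26-fold lower in G3SKM (1.97 to 2.60). Against empty vector Cebpa was 1.51-fold lower in OSKM (1.31 to 1.73) and 1.59-fold lower in G3SKM (1.40 to 1.81).

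Cebpg and Cebpz varied least. Cebpg stood at 3.34 RPKM with empty vector, 2.69 with SKM, 3.12 with OSKM and 3.65 with G3SKM, and its highest value was 1.36 times its lowest. Its low group as deposited was SKM. That direction turned with the transcript GC trend removed, where the log2 ratio of Cebpg in SKM against empty vector went from -0.23 to 0.24. Cebpz stood at 2.62 RPKM with empty vector, 2.55 with SKM, 3.69 with OSKM and 3.28 with G3SKM, a range of 1.45-fold. Cebpz was the only member of the 5 with its highest value in OSKM, 1.41-fold above empty vector (1.36 to 1.47). Between SKM and empty vector the Cebpz ratio was 0.977, and its interval (0.931 to 1.025) includes 1, but the log2 ratio went from -0.02 to 0.45 with the transcript GC trend removed. Cebpe, the remaining C/EBP gene of the bZIP type and a factor of granulocytes, was outside the selected members and was listed at 0 in empty vector and G3SKM, with 2 reads each in SKM and OSKM.

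**Figure D1:**
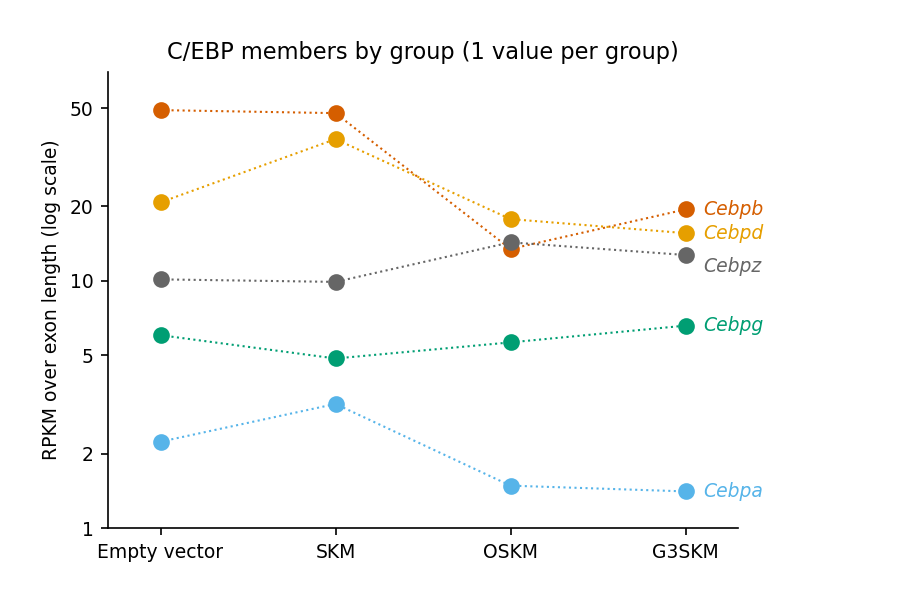
RPKM over exon length (log axis) of the 5 C/EBP members in the 4 groups, 1 point for each group and gene, made from 2 combined replicates, with no error bar; dotted lines only join points of a gene. Cebpb is at 49.1 and 47.7 in empty vector and SKM and at 13.46 and 19.5 in OSKM and G3SKM, Cebpd is highest in SKM (37.5), and Cebpg and Cebpz change little.

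Levels of different genes can be compared per exon length. Cebpa, Cebpb and Cebpd consist of a single exon, so their values stay as deposited, whereas the deposited values of Cebpg and Cebpz divide by spans 1.81 and 3.88 times the exon length. On the exon-length scale Cebpg was at 4.85 to 6.59 RPKM and Cebpz at 9.90 to 14.3 RPKM. The level of the 4 bZIP members summed to 78.1 RPKM with empty vector, 93.2 with SKM, 38.4 with OSKM and 43.0 with G3SKM. Cebpb made up 62.8% of that sum with empty vector, 51.2% with SKM, 35.1% with OSKM and 45.2% with G3SKM. Cebpd made up 26.6%, 40.2%, 46.3% and 36.2% in the same order. With these values Cebpb was the leading member in 3 groups, and Cebpd in OSKM. The Cebpd level rests on its counted length, which came out as 1180 bases against 3746 exon bases in the annotation. Sums, shares and ratios that hold Cebpd rest on that length too. Whether Cebpd would lead in OSKM over the annotated exon was not tested. The ratio of Cebpb to Cebpd was 2.36 (2.26 to 2.47) with empty vector, 1.27 (1.21 to 1.34) with SKM, 0.757 (0.705 to 0.813) with OSKM and 1.25 (1.18 to 1.32) with G3SKM. Cebpg made up 7.72% in empty vector and 5.21% in SKM, against 14.7% in OSKM and 15.3% in G3SKM. The summed level of Cebpa, Cebpb and Cebpd was 11.96 times the level of Cebpg in empty vector, 18.2 times in SKM, 5.80 times in OSKM and 5.53 times in G3SKM. No GC trend was removed from these sums, shares and ratios. With the transcript GC trend removed, as described further on, Cebpb in SKM against empty vector went from a log2 ratio of -0.04 to -0.49. Cebpg went from -0.23 to 0.24 there. Whether the larger sum and the larger ratio to Cebpg in SKM remain without that trend was not tested. These are amounts of RNA, and the paired proteins were not measured.

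**Figure D2:**
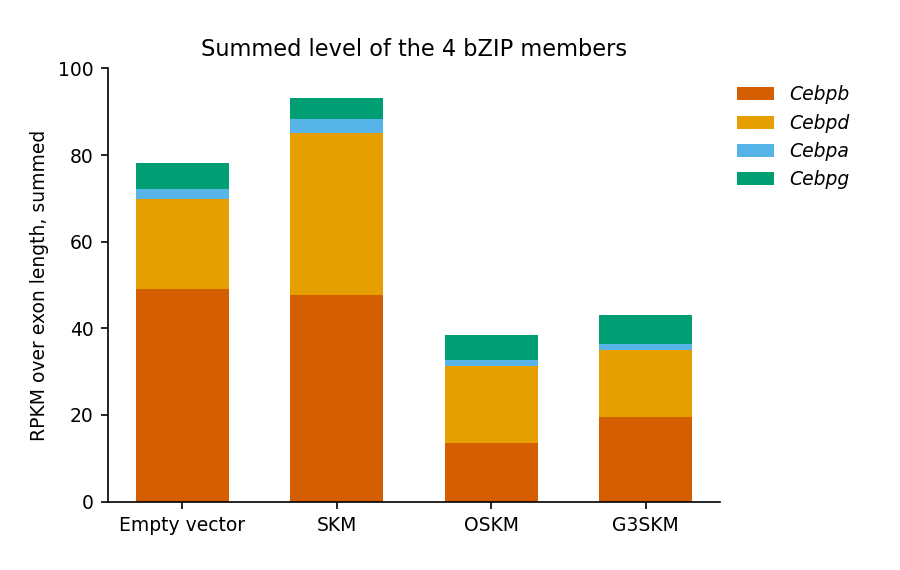
Stacked bars of RPKM over exon length for the 4 bZIP members in each group (linear axis from 0, 1 value per group, no error bars, no GC trend removed). Cebpd is shown as deposited, over its counted length. The sum is 78.1 in empty vector and 93.2 in SKM against 38.4 in OSKM and 43.0 in G3SKM, and Cebpg is the part that changes least.

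Among 51 bZIP genes on the exon-length scale, Cebpb held rank 4 in empty vector and SKM, rank 10 in OSKM and rank 5 in G3SKM. Cebpd held rank 15 in empty vector, rank 6 in SKM and OSKM and rank 8 in G3SKM, and these ranks rest on its counted length as above. Atf4, which activates genes of amino acid supply, led in the 3 groups with delivered factors, and Junb, an AP-1 subunit, led in empty vector. Cebpg held rank 25 to 29 and Cebpa rank 32 to 37.

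A rule of size was used to set the members beside all genes. Only genes that reached 1 RPKM in either group compared were considered, and a call of higher or lower needed a log2 ratio of 1 or more in size once 1 RPKM had been added to both values. All 5 members passed this filter in each of the 6 comparisons, and none was called higher in any. The comparisons share groups, SKM in 3 of them and empty vector in 3, so their ratios are not independent. In SKM against empty vector 0 members were called lower, where 5.98% of 10195 genes were called lower and 8.88% higher. The log2 ratios there were 0.37 for Cebpa, -0.04 for Cebpb, 0.82 for Cebpd, -0.23 for Cebpg and -0.02 for Cebpz, and the median of all genes was 0.15. In OSKM against SKM 2 members, Cebpb and Cebpd, were called lower, where 1.64% of 10211 genes were called lower and 2.55% higher. Cebpb had a log2 ratio of -1.75, the value at rank 11 from the lowest, and Cebpd -1.03, at rank 148. Cebpa at -0.75 (rank 422), Cebpg at 0.16 and Cebpz at 0.40 stayed under the rule. In G3SKM against SKM the same 2 members were called lower, where 1.1% of 10214 genes were called lower and 4.43% higher. The log2 ratios were -1.25 for Cebpb (rank 39), -1.21 for Cebpd (rank 45), -0.80 for Cebpa (rank 311), 0.33 for Cebpg and 0.27 for Cebpz.

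For the comparisons that leave SKM out, columns were joined across tables. In OSKM against empty vector only Cebpb of the 5 was called lower, at -1.79 (rank 87), where 4.16% of 10212 genes were called lower and 4.82% higher. In G3SKM against empty vector only Cebpb was called lower, at -1.29 (rank 216), where 3.75% of 10298 genes were called lower and 7.11% higher. The median of all genes was 0.18 and 0.17 in these comparisons. Cebpd was at -0.21 and -0.39, Cebpa at -0.38 and -0.43, Cebpg at -0.07 and 0.10, and Cebpz at 0.38 and 0.24. In OSKM against G3SKM 0 members were called lower, where 2.25% of 10222 genes were called lower and 0.724% higher, and Cebpb was the lowest member, at -0.50.

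**Figure D3:**
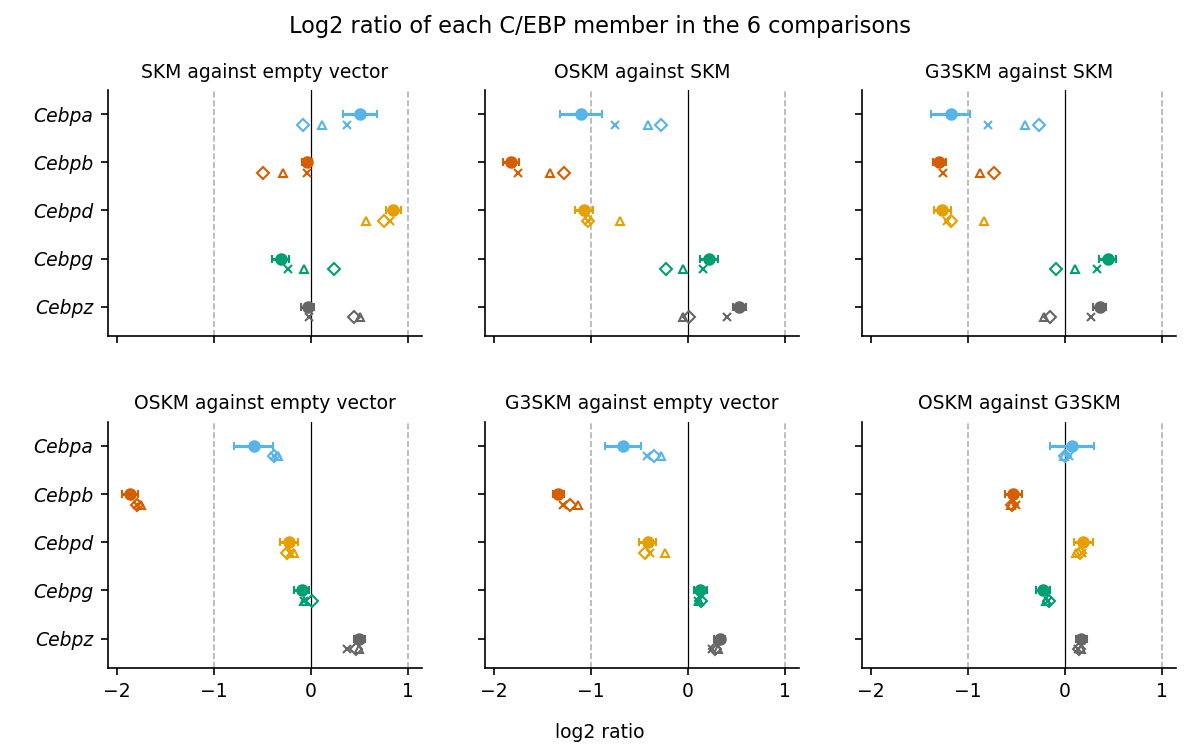
Log2 ratios of the 5 members in the 6 comparisons. Filled circles are ratios of RPKM with 95% counting intervals; below them crosses are ratios of RPKM + 1, diamonds the same after removal of the trend with transcript GC and triangles with coding GC; dashed lines mark the rule of size. Cebpb lies at or below -1.14 by every mark in OSKM and G3SKM against empty vector, while in G3SKM against SKM it goes from -1.25 to -0.73 and -0.87 after GC removal.

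The ratios against SKM moved with base composition. Over all genes, the rank correlation (Spearman's rho) of the log2 ratio with the GC content of the longest transcript was -0.708 in OSKM against SKM and -0.715 in G3SKM against SKM, 0.496 in SKM against empty vector, and 0.0597, -0.00225 and 0.0558 in the 3 comparisons without SKM. These are correlations across genes, which are not independent. The transcripts of Cebpa (62.6% GC) and Cebpb (67.2%) are GC rich, Cebpd is at 51.6%, and Cebpg (43.3%) and Cebpz (43.4%) are low. The coding sequences of Cebpa, Cebpb and Cebpd are at 71.9%, 73.4% and 70.4% GC, against 50.7% for Cebpg and 44.3% for Cebpz. In OSKM and G3SKM against SKM the 3 members of high coding GC had ratios below 0 and the other 2 had ratios above 0. With the median of 20 bins of transcript GC taken out, Cebpb in OSKM against SKM went from -1.75 to -1.28 and stayed past the rule, and in G3SKM against SKM from -1.25 to -0.73, under it. Cebpd stayed past the rule at -1.03 and -1.18, and Cebpa went to -0.28 and -0.27. With coding GC in place of transcript GC, Cebpb was at -1.42 and -0.87 and Cebpd at -0.70 and -0.83. For Cebpd the 2 choices differ because its transcript lies in a bin with a median of -0.01 in OSKM against SKM and its coding sequence in one with a median of -0.37. The Cebpd reads came out whole for a counted length of 1180 bases, against 3746 bases in the annotation used here, so which GC content applies to the counted stretch is not known. Cebpg and Cebpz lay between -0.23 and 0.10 in both comparisons after either removal, and by transcript GC Cebpg changed sign in both, from 0.16 to -0.23 with OSKM and from 0.33 to -0.09 with G3SKM, as did Cebpz with G3SKM, from 0.27 to -0.16. In SKM against empty vector, removal by transcript GC turned Cebpa from 0.37 to -0.08 and left Cebpd at 0.75, and by coding GC these were at 0.12 and 0.57. Cebpz was at 0.45 and 0.50 there, and Cebpg at 0.24 and -0.07. The directions of Cebpa, Cebpg and Cebpz between SKM and empty vector thus depend on the GC trend.

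The bin that holds Cebpb spans 60.3% to 82.9% GC with a median of 62.1%, below the 67.2% of Cebpb, so the part of the trend beyond that bin's median was not removed. Against empty vector, where the ratio had little trend with GC, Cebpb was at -1.79 in OSKM and -1.21 in G3SKM after removal by transcript GC, and at -1.75 and -1.14 by coding GC. The low Cebpb in both groups was present in the comparisons without SKM, before and after removal. Cebpd was past the rule only where SKM was the group compared.

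**Figure D4:**
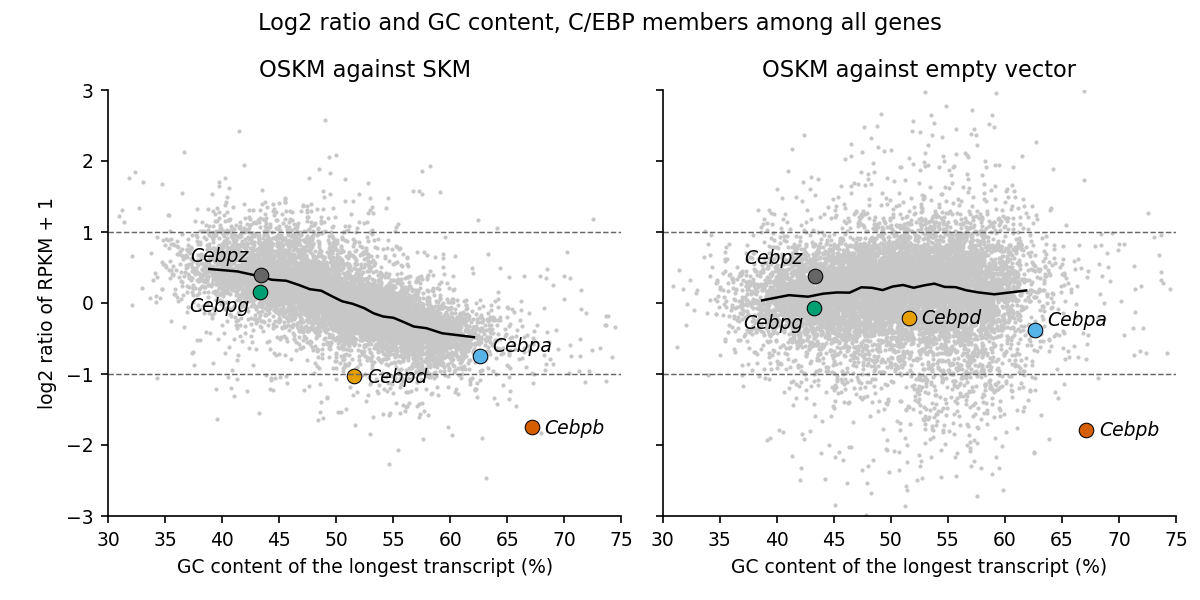
Log2 ratio of RPKM + 1 against the GC content of the longest transcript for OSKM against SKM and OSKM against empty vector, 1 grey point per gene (9478 in each, of which 10 and 32 lie outside the axes), with the medians of 20 GC bins as a line and the 5 members as coloured points. The line falls with GC on the left, where Cebpa lies near it and Cebpb and Cebpd below it, and is near level on the right, where Cebpb lies alone among the members below -1.

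The genes around the members bear on how reads were assigned, since strand use in counting is not given in the sources used here. Tmem189 overlaps Cebpb on the opposite strand by 908 bases and was at 1.04 to 2.13 RPKM. Spidr overlaps Cebpd by 1808 bases and was at 0.130 to 0.230 RPKM. Cebpzos overlaps Cebpz by 1301 bases on the opposite strand and stood at 2.53 RPKM with empty vector, 3.41 with SKM, 3.72 with OSKM and 4.54 with G3SKM. Per exon length Cebpzos had 8.51 to 15.3 RPKM, near the range of Cebpz, and reads inside the overlap cannot be told apart without strand. Antisense genes also overlap Cebpa and Cebpg by 313 and 353 bases. Cebpa and Cebpg flank each other on chromosome 7 with 62720 bases between them, and their levels were ordered differently over the groups.

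Of the other bZIP genes, some of which can pair with C/EBP proteins, a minority were called lower with the delivered factors. This list, like the ones below, was written with earlier results of these data known, and 47 of its 49 genes are in the tables. Of those past the filter, 10 of 28 were called lower in OSKM against empty vector (median -0.74), where 4.16% of all genes were. In G3SKM against empty vector 8 of 29 were called lower (median -0.73), where 3.75% of all genes were. In either comparison 0 were higher, and the medians over all genes were 0.18 and 0.17. On the exon-length scale, where more genes pass the filter, 15 of 38 and 14 of 39 were lower and 1 higher in each. For this and the lists below, the share of all genes called on that scale is not given here. Among the 10 in OSKM were Junb, Fosb and Jun, and among the 8 in G3SKM were Junb, Fosb and Atf5. Junb stood at 91.4 RPKM with empty vector, 44.0 with SKM, 20.3 with OSKM and 19.2 with G3SKM. As deposited, Junb was already lower in SKM than in empty vector, unlike Cebpb. With the transcript GC trend removed Cebpb too was below empty vector in SKM (log2 ratio -0.49). Junb was 4.51-fold lower in OSKM than in empty vector (4.39 to 4.63). Fosb, another AP-1 subunit, stood at 2.99 RPKM in empty vector and 0.290 to 0.475 in the other groups. Against empty vector Fosb thus passed the filter only through that group and could not be called higher. How many other genes of this list passed in that way was not counted. Atf5 stood at 49.4, 30.7, 17.2 and 17.5 RPKM in the order empty vector, SKM, OSKM, G3SKM. Ddit3 encodes CHOP, a bZIP protein that pairs with C/EBP proteins and is induced by stress of the endoplasmic reticulum, and it stood at 5.62, 3.40, 2.14 and 3.57 RPKM in that order. In SKM against empty vector 4 of 28 were called lower (Fosb, Junb, Nfil3 and Xbp1, median -0.56), where 5.98% of all genes were. With the transcript GC trend removed it was 10 of 28, as many as in OSKM against empty vector after the same removal. Among all genes, 402 of 9455 in SKM and 394 of 9478 in OSKM were lower against empty vector after removal. Against SKM, 1 of 22 was called lower in OSKM (Junb) and 2 of 24 in G3SKM (Junb and Jund), where 1.64% and 1.1% of all genes were. These calls became 0 of 22 and 0 of 24 with the GC trend removed. In OSKM against G3SKM 0 of 23 were called.

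Signals that induce Cebpb and Cebpd depended on the length scale. As deposited, of the 21 genes of this list, 9 passed the filter in OSKM and in G3SKM against empty vector. Lif was the 1 lower gene in each (medians -0.32 and -0.47), where 4.16% and 3.75% of all genes were called lower. On the exon-length scale 5 of 17 were lower and 1 higher in OSKM (median -0.71), 2 of 18 lower in G3SKM (median -0.75), and 5 of 17 lower and 1 higher in SKM (median -0.44), each against empty vector. With the GC trend removed on that scale, SKM had 1 of 17 lower and 2 higher (median -0.45). OSKM then still had 5 of 17 lower and 1 higher, and G3SKM 1 of 18 lower. Lif, a cytokine of the interleukin-6 family, stood at 5.43 RPKM with empty vector, 0.901 with SKM, 0.634 with OSKM and 1.10 with G3SKM. In SKM and in OSKM against empty vector Lif passed the filter only through empty vector and could not be called higher. Socs3, a target and inhibitor of STAT3 signalling, stood at 3.58, 11.9, 5.35 and 7.46 RPKM in that order and so was highest in SKM, as Cebpd was. It was the 1 higher gene of 9 in SKM against empty vector, where Lif was the 1 lower gene (median -0.32), and the 1 lower gene of 6 in OSKM against SKM (median -0.34), a call lost with the GC trend removed (0 of 6, median -0.09). The shares over all genes were 8.88% higher and 5.98% lower in SKM against empty vector, and 1.64% lower in OSKM against SKM. In G3SKM against SKM and in OSKM against G3SKM 0 of 8 were called (medians -0.20 and -0.05). Stat3 itself was at 1.43 to 2.54 RPKM and Il6 at 0.328 to 1.17 RPKM.

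Among regulators and cofactors of C/EBP proteins, Trib1, Trib3, Ddit3 and Id2 were the 4 of 14 called lower in OSKM against empty vector (median -0.07), and Trib1, Trib3 and Id2 the 3 of 14 in G3SKM against empty vector (median -0.21). Over all genes 4.16% and 3.75% were called lower in these comparisons. Ddit3 is also counted in the bZIP list. Trib1 belongs to the Tribbles proteins, of which Trib1 and Trib2 lead C/EBP-alpha to degradation. It stood at 4.76 RPKM with empty vector, 1.61 with SKM, 1.14 with OSKM and 1.35 with G3SKM. Id2, an inhibitor of basic helix-loop-helix factors, stood at 13.1, 4.81, 4.41 and 3.83 RPKM in that order. Trib1 and Id2 were also the 2 of 15 called lower in SKM against empty vector (median -0.21), where 5.98% of all genes were. In either comparison against SKM 0 of 14 were called (medians -0.08 in OSKM and -0.13 in G3SKM).

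Genes of the acute-phase and inflammatory response include known C/EBP targets. In OSKM against SKM 6 of the 9 genes past the filter were called lower and 0 higher (median -1.07, against -0.01 over all genes). They were Saa3, Lcn2, Hp, Cxcl1, Cxcl5 and Ccl2, and 1.64% of all genes were called lower there. On the exon-length scale 6 of 14 were lower (median -0.61). In G3SKM against SKM 0 of 10 were called (median 0.12, against -0.00 over all genes). In OSKM against G3SKM 4 of 9 were called lower (Saa3, Cxcl1, Cxcl5 and Ccl2, median -0.98), where 2.25% of all genes were. Cebpb itself stayed under the rule in that comparison. Saa3, an acute-phase apolipoprotein, stood at 0.389 RPKM with empty vector, 2.95 with SKM, 0.258 with OSKM and 2.64 with G3SKM. Hp, which encodes haptoglobin, stood at 1.64, 4.21, 0.910 and 2.77 RPKM in that order. In OSKM against SKM these genes passed the filter only through SKM, and in OSKM against G3SKM only through G3SKM. Neither could thus be higher in OSKM, and the counts describe the genes of this list alone. Saa3 and Hp were both lowest in OSKM, as Cebpb was, but G3SKM, where Cebpb was also low, had both above empty vector. The chemokine gene Ccl2 stood at 93.5 RPKM with empty vector, 34.8 with SKM, 15.9 with OSKM and 44.6 with G3SKM. Cxcl5 stood at 18.7, 18.2, 8.13 and 27.2 RPKM in that order. Ptgs2, which encodes the inducible cyclooxygenase, differed from these, with 47.4 RPKM with empty vector, 1.59 with SKM, 3.61 with OSKM and 4.02 with G3SKM. Against empty vector, 4 of 8 were called lower and 1 higher (Sod2) in OSKM (median -1.001), 2 of 9 lower and 1 higher in G3SKM (median -0.05), and 2 of 10 lower and 2 higher in SKM (median -0.16). Over all genes 4.16%, 3.75% and 5.98% were lower and 4.82%, 7.11% and 8.88% higher in that order. In SKM and G3SKM against empty vector Saa3 passed the filter only through the group with delivered factors and could not be lower. The macrophage markers, whose cells also express several of these genes, were low in all 3 groups with delivered factors, as given above.

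C/EBP-alpha and C/EBP-beta act in the epidermal differentiation of keratinocytes. Genes of this list at low levels in empty vector, such as Sbsn and Sprr1a, passed the filter only through a group where they were high and so had to differ, and the counts describe those genes alone. In SKM against empty vector 8 of 9 were called higher (median 2.15), where 8.88% of all genes were. In OSKM against SKM 6 of 9 were lower (median -1.57) and in G3SKM against SKM 2 of 9 (median -0.42), where 1.64% and 1.1% of all genes were. With the transcript GC trend removed these counts were 6, 6 and 1 of 9 (medians 2.08, -1.27 and -0.10). Among all genes after removal, 568 of 9455 were higher in SKM, and 98 of 9478 and 57 of 9460 lower against SKM. Against empty vector, 4 of 5 were higher in OSKM (median 1.91) and 6 of 7 in G3SKM (median 2.70), and OSKM had 4 of 7 lower than G3SKM (median -1.18). Over all genes 4.82% and 7.11% were higher and 2.25% lower in that order. Sbsn, which encodes suprabasin, stood at 0.683 RPKM with empty vector, 25.05 with SKM, 6.26 with OSKM and 15.5 with G3SKM. Sprr1a, a precursor of the cornified envelope, stood at 0.200, 17.9, 3.51 and 6.78 RPKM in that order. Both genes were lowest in empty vector, where Cebpb was highest. As deposited, over the groups with delivered factors both ran SKM above G3SKM above OSKM. So did the summed keratinocyte markers (56.3, 40.3 and 33.6 RPKM). No GC trend was removed from these levels. With the transcript GC trend removed, the median log2 ratio of the keratinocyte markers in G3SKM against SKM went from -0.37 to 0.006. The step from SKM to G3SKM in that order thus depends on the GC trend for these markers.

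Adipogenesis genes were mostly below the filter. Of 19 genes 4 passed it as deposited, with 0 called in any comparison. The medians against empty vector were 0.56 (SKM), 0.31 (OSKM) and 0.29 (G3SKM), -0.33 in OSKM and in G3SKM against SKM, and 0.08 in OSKM against G3SKM. With the transcript GC trend removed 1 of 4 was higher in SKM against empty vector and 1 of 4 lower in OSKM against SKM. On the exon-length scale 7 passed against empty vector, with 1 lower in SKM, in OSKM and in G3SKM. There 1 of 7 was higher in OSKM against G3SKM, and 0 were called against SKM. Pparg, the receptor that C/EBP-beta and C/EBP-delta induce in fat precursors, was at 0.0115 to 0.0198 RPKM. Those values divide by the gene span with introns, and the level of Pparg per exon length is not given here. Of the myeloid genes 2 of 13 passed, and Lyz2, a lysozyme gene of macrophages, was called lower against empty vector in SKM (-2.88), OSKM (-3.77) and G3SKM (-3.05). The other gene past the filter was not called, and against SKM, and in OSKM against G3SKM, 0 of 2 were called. Nucleolar genes were listed for Cebpz. Of these, 5 of 27 were higher in SKM (median 0.35), 1 of 28 in OSKM (Nop56, median 0.53) and 2 of 28 in G3SKM (Nop56 and Ppan, median 0.46) against empty vector, where 8.88%, 4.82% and 7.11% of all genes were called higher, and 0 of 28 in each of the other comparisons (medians 0.08 to 0.09). Nop56, a part of box C/D ribonucleoproteins, stood at 24.6 RPKM with empty vector, 53.0 with SKM, 51.6 with OSKM and 68.7 with G3SKM.

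**Figure D5:**
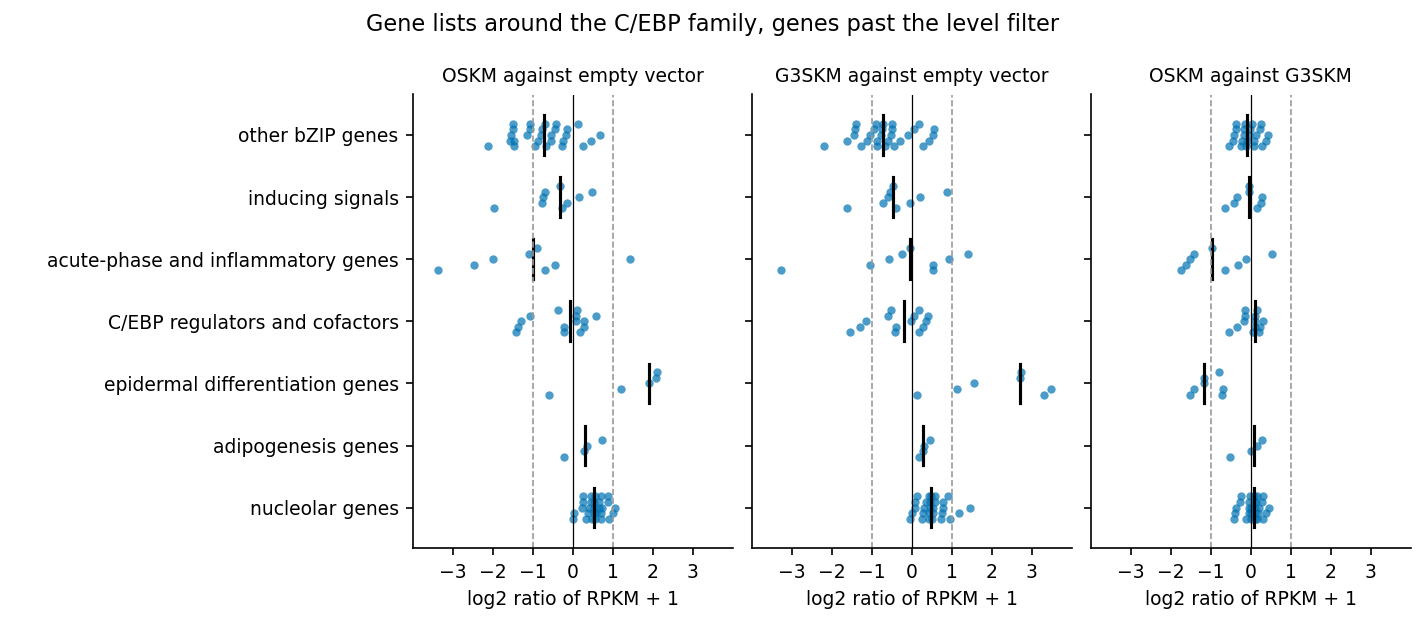
Log2 ratio of RPKM + 1 for genes of 7 lists past the filter in OSKM and G3SKM against empty vector and in OSKM against G3SKM, 1 point per gene (vertical offsets only separate points), with each list's median as a bar and the rule of size as dashed lines. The other bZIP genes have medians of -0.74 and -0.73 against empty vector and -0.09 between OSKM and G3SKM, where the acute-phase and epidermal lists have medians of -0.98 and -1.18.

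The genes whose profile over the 4 groups lay nearest to that of each member were found among 7204 protein-coding genes by the Euclidean distance of log2(RPKM + 1), each gene centred on its own mean. With 4 values per gene this is a description of likeness only. No GC trend was removed from these profiles, so likeness in SKM can come from GC content. Nearest to Cebpb were Dlk1, Ier5l, Col1a1, Aebp1 and Lrrc32, at distances of 0.388 to 0.543 and with 53.6% to 63.8% GC. Dlk1, an inhibitor of adipogenesis, stood at 5.24 RPKM with empty vector, 3.39 with SKM, 0.822 with OSKM and 1.25 with G3SKM. Col1a1, the fibroblast collagen gene, stood at 332, 352, 143 and 166 RPKM in that order. As deposited it shared with Cebpb the near-equal levels in empty vector and SKM and the low levels in the other groups. Nearest to Cebpd were Selenom, Pold4, Scand1, Tmem200b and Ckb, at distances of 0.238 to 0.279 and with 57.3% to 68.4% GC. Scand1 stood at 25.8 RPKM with empty vector, 51.9 with SKM, 28.2 with OSKM and 19.9 with G3SKM. Nearest to Cebpa were Map1lc3a, Adm, Ppp1r15a, Nfkb2 and Gnb2, at 0.0846 to 0.129 and with 50.7% to 63.1% GC. Nearest to Cebpg were Hdhd2, Atg3, Psme2, Mycbp and Sike1, at 0.0254 to 0.0511 and with 40.1% to 52.8% GC. Nearest to Cebpz were Coq3, Defb41, Hsph1, Ints12 and Vps4a, at 0.0419 to 0.0493 and with 37.7% to 51.6% GC.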

How the data were processed

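RNA-seq values of 4 groups of mouse embryonic fibroblasts, each standing for 2 replicates combined per the labels, were taken from 3 deposited tables. Amplified cDNA was made into libraries with further PCR, per the labels' protocols. TopHat 1.3.0 and mm9 appear in the submitters' processing notes. Not given in the sources used here are the read counter, its annotation and how replicates were combined. The authors deposited RPKM, per the file headers, beside a log2 ratio of their own that was not used for any value here. The 3 tables hold the same SKM column. Entries of 0.001 were taken as 0.

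Symbols, spans, exon lengths and GC content came from GENCODE M21 (91.0% of genes matched), a later build, so no mm9 coordinates are given. The deposited RPKM divide by the gene span, introns included. Their steps gave depth and reads, within 0.05 of a whole number for 74.7% to 76.7% of genes per group. For each member the smallest length that gave whole reads in all groups was used for reads. For Cebpd whole multiples of 1180 bases would fit as well, which would raise its reads and narrow its intervals.

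The rule of size used a pseudocount of 1 RPKM and a filter at 1 RPKM. Folds are ratios of RPKM, with 95% Clopper-Pearson intervals on reads. With 1 value per group no p-value can be given. GC trends were removed as the median of 20 bins, with the median of all genes added back. The members and gene lists were chosen with earlier results of these data known. The named genes were the members, up to 3 higher and 3 lower genes of each list and comparison, the 5 genes of nearest profile, the neighbours, Cebpe, Ddit3 and delivered factors. Genes named beyond this rule, among them the complete called sets of short lists, Stat3, Il6, Pparg and Cxcl5, were added after their values were seen. Atf7, Nrl, Flg, Elane and Noc2l of the lists were not analysed here. Not every gene counted in the lists is reported here by name. Upstream sequence came from RefSeq, build GRCm38.p6. The calculations were tested on simulated data and used Python 3.11.15, pandas 2.3.3, numpy 2.4.6, SciPy 1.17.1 and matplotlib 3.10.9. Alternatives were a pseudocount of 0.1 or 5 RPKM, no filter or one at 5 RPKM, a minimum of 100 reads, a rule of 2, centring on the median, trimmed mean scaling, exon length, and removal of GC trends. Removal by coding GC was chosen after seeing the data.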

Additional observations from a re-analysis of the deposited data

How the results depend on the processing

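No paired analysis was possible because each group has 1 value that combines its replicates. No replicate could be left out for the same reason. The count of C/EBP members past the rule of size was 2 in OSKM against SKM. It was 1 (Cebpb) with a pseudocount of 5 RPKM, with exon length and the GC trend removed, and with the coding GC trend removed. It was 0 with a rule of 2. The count was 2 in G3SKM against SKM. It was 1 (Cebpd) with the transcript GC trend removed, with or without exon length, and 0 with the coding GC trend removed or a rule of 2. In OSKM and in G3SKM against empty vector the count was 1 and became 0 with a rule of 2 only. A pseudocount of 0.1 RPKM added Cebpa to both comparisons against SKM, giving 3.

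Cebpb was past the rule in 11 of 12 alternatives, all but the rule of 2, in OSKM against SKM, in OSKM against empty vector and in G3SKM against empty vector, and in 8 of 12 in G3SKM against SKM. The log2 ratio of Cebpb ranged from -1.82 to -1.15 in OSKM against SKM, from -1.29 to -0.63 in G3SKM against SKM, from -2.02 to -1.55 in OSKM against empty vector and from -1.51 to -1.14 in G3SKM against empty vector. Cebpd was past the rule in 8 of 12 alternatives in OSKM against SKM and in 10 of 12 in G3SKM against SKM. No called value changed sign, but with the transcript GC trend removed Cebpa, Cebpg and Cebpz in SKM against empty vector, Cebpg and Cebpz in G3SKM against SKM, and Cebpg in OSKM against SKM and against empty vector did, all under the rule. With the coding GC trend removed, Cebpg and Cebpz in OSKM against SKM changed sign (each to -0.05). So did Cebpz in SKM against empty vector and in G3SKM against SKM, and Cebpa in OSKM against G3SKM (to -0.01). Cebpg in G3SKM against empty vector went from 0.10 to -0.07 by centring on the median and to -0.12 by trimmed mean scaling. Of 342 values of members under the alternatives, which include those that could not move, 118 lay outside the counting interval of the main value. Counting intervals, 1 value per group, PCR copies and the unknown combining of replicates limit every comparison.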
